A study of Rattus norvegicus with 24 samples.

Results

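The genes described here are 10 rat genes of FoxO signalling, autophagy and muscle protein breakdown: Foxo1, Foxo3, Irs2, Pik3r1, Ulk1, Gabarapl1, Trim63, Fbxo32, Fbxo31 and Spop. They were found by symbol among the 36856 genes of 3 deposited count tables, and all 10 were present in each table. The members were chosen by their differences between low-salt and high-salt hearts in earlier results of these data, so the heart values below are a description and support nothing. The study measured RNA by sequencing in 24 libraries, 4 rats in each of 6 groups, to learn how dietary Na and aldosterone change gene expression in kidney and heart. Heart ventricle and kidney papilla (inner medulla) came from rats on low salt, a synthetic diet with 0.01 to 0.02% Na for 7 days, and from rats on high salt, the same kind of diet with 0.4% Na, which the protocol also calls control Na. In a separate kidney experiment, Aldosterone rats ate the 0.4% Na diet and carried an osmotic minipump that released 12 µg of aldosterone per day, and Control rats ate that diet without the infusion. All were Sprague-Dawley rats of 120 to 200 g, the labels give no age, and they do not say whether the heart and kidney of the low-salt experiment came from the same rats.

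FoxO proteins are forkhead transcription factors that the insulin pathway holds in the cytoplasm: the receptor acts through IRS adaptors, PI3 kinase and the kinase Akt, which phosphorylates FoxO. When this signal falls, FoxO proteins enter the nucleus and, in skeletal and cardiac muscle, switch on genes for autophagy and for the ubiquitin ligases that mark muscle proteins for the proteasome. Glucocorticoids and fasting are known to raise several of these genes in muscle.

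Promoter sequences are shown for a pair of these genes, Trim63 because it carried matches to motifs and Fbxo31 because it was the single member past the threshold in heart. RefSeq windows (GRCr8 build, 250 bases before to 50 after the annotated start) were found for 7 of the 10 genes. They were searched on both strands for a FoxO core (GTAAACA), a glucocorticoid response element core (GAACA, any 3 bases, then TGTTC) and the E-box CACGTG. Capitals mark matches.
Trim63, chr5:151816986-151817285, plus strand: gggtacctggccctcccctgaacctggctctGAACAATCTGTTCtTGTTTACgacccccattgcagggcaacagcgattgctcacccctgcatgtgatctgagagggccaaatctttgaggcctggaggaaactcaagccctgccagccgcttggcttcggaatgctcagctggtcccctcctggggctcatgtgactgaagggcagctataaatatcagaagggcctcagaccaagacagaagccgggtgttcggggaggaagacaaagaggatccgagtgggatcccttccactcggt
Fbxo31, chr19:66564625-66564924, minus strand: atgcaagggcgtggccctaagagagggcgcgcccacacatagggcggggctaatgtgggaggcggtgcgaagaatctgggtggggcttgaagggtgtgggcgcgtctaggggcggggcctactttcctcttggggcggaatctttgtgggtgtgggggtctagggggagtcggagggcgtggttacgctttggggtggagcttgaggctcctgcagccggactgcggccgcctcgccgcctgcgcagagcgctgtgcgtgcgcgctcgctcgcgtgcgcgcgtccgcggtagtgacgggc

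In the Trim63 window the glucocorticoid response element core lay at bases 32 to 44 and the FoxO core, as its reverse complement, at bases 46 to 52, counted from the window's 5′ end, with a single base between them. Of 33469 RefSeq windows of the same 300 bases, 3.78% held the FoxO core, 0.0508% the glucocorticoid response element core and 6.42% the E-box. Both of the first pair occurred together in 2 windows (0.00598%). The windows of Foxo1, Pik3r1, Ulk1, Gabarapl1, Fbxo31 and Spop held none of these letters. A match is a description of the letters and not of a bound site. In skeletal muscle the glucocorticoid receptor and Foxo1 are known to act together on the Trim63 promoter.

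Library totals ran from 24299423 to 38318764 counts. The labels call all rats female, but the X-inactivation transcript Xist was measured at no more than 0.0913 CPM in the 16 libraries of the low-salt experiment and at 239 to 454 CPM in the 8 of the aldosterone experiment. The summed Y-linked genes ran the other way, at 144 to 275 CPM in the low-salt experiment and at most 0.319 CPM in the aldosterone experiment, so each comparison within a table held 1 pattern. Summed cardiomyocyte markers (8 genes) were 70480 to 85650 CPM in low-salt hearts and 76230 to 88920 CPM in high-salt hearts, and summed skeletal muscle markers did not exceed 5.37 CPM in any heart. In kidney, the summed principal cell markers were 7577 to 12660 CPM, and the summed cardiomyocyte markers 1.31 to 5.75 CPM, with Myh6 up to 2.08 CPM and Tnnt2 up to 1.36 CPM. Of the cardiomyocyte and atrial lists, Myh7, Myl7, Sln and Nppa stayed under 0.1 CPM there. Of the hearts, high-salt replicate 2 held the kidney transcripts Umod (47.8 CPM) and Aqp2 (21 CPM), against at most 4.8 and 1.29 CPM in the other 7 libraries, and high-salt replicate 4 held 2510 CPM of Nppa, against 16.7 to 300 CPM in the others. Replicates 1 and 2 of each group are batch 1 in the labels and replicates 3 and 4 are batch 2.

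In heart, 9 of the 10 genes had higher mean levels on low salt than on high salt. Their fold changes in the edgeR fit were increases of 11.1% to 55.0%. Irs2 averaged 22.0 ± 9.65 CPM with the low-salt diet and 22.3 ± 9.19 CPM with the high-salt diet (SD, n = 4). The list's median log2 fold change was 0.39, beside -0.01 over all 15473 genes tested, of which 48.2% had positive values. In 5 of the 10 all 4 low-salt libraries lay above all 4 high-salt libraries (Foxo1, Pik3r1, Ulk1, Trim63 and Spop), against 2.69% of all genes. Fbxo31 alone passed the adjusted threshold of 0.05 in edgeR's quasi-likelihood test, where 0.0517% of all genes passed, and 8 passed at an unadjusted p under 0.05, where 10.6% of all genes did. DESeq2 called 7 of the 10, against 2.23% of all genes and 1.41% called higher. Because these genes were proposed with this contrast in view, the counts are printed beside their background and nothing is read from them. Levels are normalised CPM (rounded expected counts scaled to the library total as adjusted by TMM factors), which are set against each other only for the same gene. In pieces of whole tissue fewer cells of a type and less RNA per cell cannot be told apart.

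**Figure D1:**
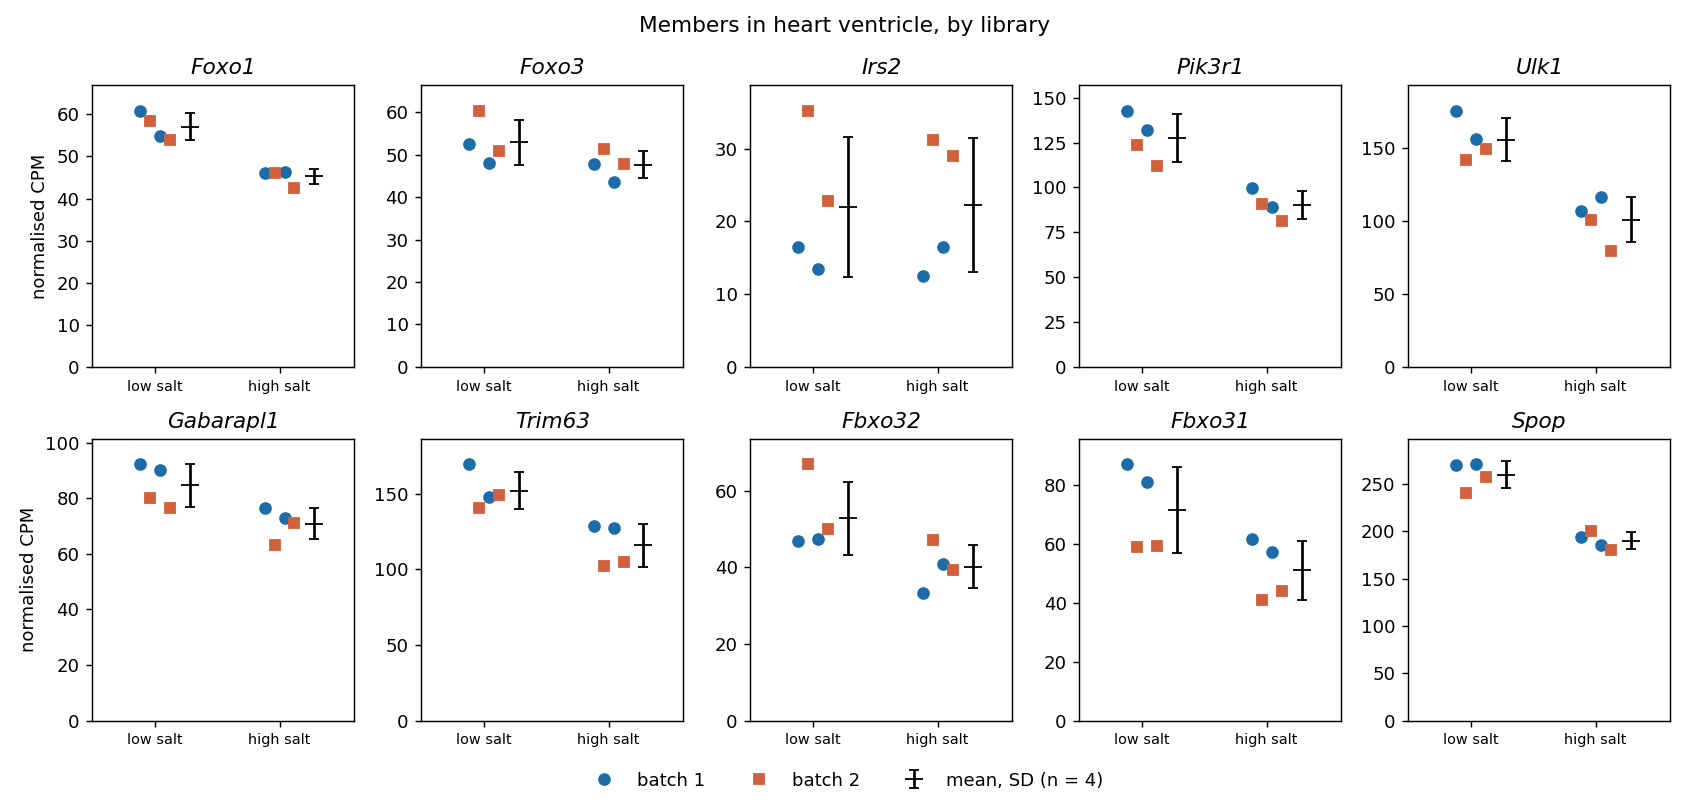
Normalised CPM of the 10 genes in each heart library (points, circles batch 1 and squares batch 2) on low and high salt, with the mean and SD of 4 rats beside them, on linear axes from 0. Low-salt points lie above all high-salt points for Foxo1, Pik3r1, Ulk1, Trim63 and Spop. Irs2 points separate by batch over both diets. Those of Fbxo31, Ulk1 and Gabarapl1 separate by batch within each diet.

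The transcription factors differed in how clearly the diets separated. Foxo1 stood at 60.9, 54.95, 58.5 and 53.95 CPM in low-salt hearts, against 46.2, 46.3, 46.1 and 42.6 CPM in high-salt hearts. All 4 low-salt values were above the high-salt ones, and the log2 fold change was 0.33 ± 0.06 (SE of the edgeR fit, n = 4 rats per group here and below). Foxo3, the second FoxO factor with a known part in muscle atrophy, stood at 52.4, 48.0, 60.4 and 50.8 CPM on low salt, against 47.8, 43.6, 51.3 and 47.7 CPM on high salt. Its groups overlapped, with a log2 fold change of 0.15 ± 0.07.

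Upstream of FoxO, the adaptor and the PI3 kinase subunit behaved differently. Irs2, an insulin receptor substrate and itself a known FoxO target in liver, stood at 16.5, 13.4, 35.2 and 22.8 CPM on low salt, against 12.6, 16.4, 31.2 and 28.97 CPM on high salt. Its high and low libraries were divided by batch and not by diet, and the log2 fold change was -0.01 ± 0.15. Pik3r1 encodes p85 alpha, the regulatory subunit of PI3 kinase, and stood at 143, 132, 124 and 112 CPM on low salt, against 99.7, 88.98, 90.9 and 81.3 CPM on high salt. Its groups did not overlap, and the log2 fold change was 0.50 ± 0.07.

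For autophagy, Ulk1, the kinase that starts autophagosome formation, had the highest log2 fold change of the 10 in heart (0.63 ± 0.09). It stood at 176, 157, 142 and 149 CPM in low-salt hearts, against 107, 116, 101 and 79.6 CPM in high-salt hearts, with no overlap. Gabarapl1, an Atg8-family protein that is coupled to autophagosome membranes, stood at 92.3, 90.2, 80.0 and 76.4 CPM on low salt, against 76.5, 73.0, 63.1 and 70.99 CPM on high salt. The groups touched at 76.4 and 76.5 CPM across batches and were apart within each batch, with a log2 fold change of 0.26 ± 0.06.

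The 4 ubiquitin ligase genes were all higher in mean on low salt. Trim63, which encodes MuRF1, a ligase for sarcomere proteins, stood at 169.5, 148.0, 141 and 149 CPM on low salt, against 129, 128, 102.0 and 105 CPM on high salt. The groups did not overlap, and the log2 fold change was 0.40 ± 0.07. Fbxo32 encodes atrogin-1, the F-box protein that is the other classical marker of muscle atrophy, and stood at 46.9, 47.4, 66.95 and 50.02 CPM on low salt, against 33.3, 41.0, 47.2 and 39.3 CPM on high salt. Low-salt replicate 3 stood apart at the top, the groups overlapped by 1 library, and the log2 fold change was 0.39 ± 0.11.

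Spop, a substrate adaptor of cullin 3 ligases, stood at 269.9, 271, 241 and 257 CPM on low salt, against 194, 186, 200.0 and 179.9 CPM on high salt. The groups were apart by more than either group's own range, with a log2 fold change of 0.45 ± 0.06. Fbxo31 is an F-box protein reported to direct the breakdown of cyclin D1. It stood at 87.0 and 81.0 CPM in low-salt batch 1 and 58.7 and 59.3 CPM in low-salt batch 2. On high salt it stood at 61.6 and 57.0 CPM in batch 1 and 41.0 and 44.1 CPM in batch 2. Within each batch the diets were apart, and across batches they overlapped.

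Fbxo31 had a log2 fold change of 0.49 ± 0.06 and an adjusted p of 0.0396 (edgeR, Benjamini-Hochberg over all genes tested), with log2 differences of 0.50 in batch 1 and 0.47 in batch 2. That call rested on every library, since the adjusted p was 0.0823 to 0.227 when any 1 of the 8 was left out. It was 0.152 with the replicate number as a block and 0.559 without a batch term. The 9 positive genes had the same sign within each batch. Without high-salt replicate 2, the library with kidney transcripts, 10 of 10 log2 fold changes were positive with a median of 0.42, and without high-salt replicate 4, the library with high Nppa, 9 of 10 were positive with a median of 0.36. Neither fit called a member.

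Markers of red cells moved beside these values: 5 of 5 erythroid genes had positive log2 fold changes in heart (median 1.32, none called), and their sum ran from 16930 to 53810 CPM in low-salt hearts and from 2145 to 32300 CPM in high-salt hearts. Their part in the heart values was not tested. The cardiomyocyte list was positive in 4 of 8 genes with a median of -0.04, and the fibroblast list in 0 of 6 with a median of -0.30, with none called. The atrial myocyte list was positive in 1 of 4 (median -0.82, none called). Its sums were 33.6 to 209 CPM in low-salt hearts and 110 to 2533 CPM in high-salt hearts. High-salt replicate 1 held the atrial gene Myl7 at 54.8 CPM, against 3.74 to 15.9 CPM in the other hearts. The part of these lists was not tested either.

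The 2 batches of the heart table differed in some of these genes independently of diet, a comparison added after the values were seen. Irs2 averaged 29.6 CPM in batch 2 and 14.7 CPM in batch 1 over both diets, a log2 difference of 1.01 ± 0.15 (adjusted p 0.0175, edgeR). Fbxo31 averaged 50.8 CPM in batch 2 and 71.7 CPM in batch 1 (-0.49 ± 0.06, adjusted p 0.00695). Irs2 was thus higher and Fbxo31 lower in batch 2, and these were the 2 of 10 members called for batch, against 2.24% of all genes. The labels do not say what the batches were. None of the 10 was called for batch in either kidney table, where 0% of genes in the low-salt table and 0.136% in the aldosterone table were called.

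Likeness in heart was measured over 8 libraries as the root mean square difference of log2 deviations from each gene's mean, among 8665 genes with a mean of at least 10 CPM. It holds the diet and batch differences alike, and is a description. Nearest to Foxo1 were Pla2g5 (0.0495), Dcaf11 (0.0575) and Perm1 (0.0588). Trim63 had Fam131a (0.0630), Smim3 (0.0691) and Ppard (0.0729) as its nearest genes, and Fbxo32 had Bcl2l11 (0.0939), Myrip (0.116) and Rab27a (0.118). Within the list the closest pair was Pik3r1 and Spop (0.0959), where Spop was the 5th nearest of all genes to Pik3r1 and Pik3r1 the 13th nearest to Spop. Ulk1 lay nearest to Pik3r1 among the members (0.139), Trim63 to Gabarapl1 (0.115), Fbxo31 to Trim63 (0.158), Gabarapl1 to Foxo1 (0.113) and Foxo1 to Spop (0.0973). Foxo3 lay nearest to Foxo1 (0.137), Fbxo32 to Foxo3 (0.185) and Irs2 to Fbxo32 (0.426), at ranks of 2014, 97 and 673 among all genes.

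In the kidney papilla none of the 10 genes was called between low and high salt. Of the 18449 genes tested edgeR called 2.46%, and DESeq2 called 10.6%. In a list of 10 a count of 0 lies near those shares, and nothing is read from it. At an unadjusted p under 0.05 there were 2 of 10, Foxo3 and Ulk1, where 19.6% of all genes passed. The list's median log2 fold change was 0.11, beside -0.00 over all genes, and 8 of 10 were positive, against 49.3% of all genes. Ulk1 and Fbxo31 had the negative values. All 10 passed the filter on low counts in every table.

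Ulk1 stood at 165, 182, 178 and 185 CPM in low-salt kidneys, against 180.3, 215, 214 and 226 CPM in high-salt kidneys. High-salt replicate 1 was the library that overlapped, and the log2 fold change was -0.23 ± 0.07 (adjusted p 0.130, edgeR). Fbxo31 stood at 23.0, 28.9, 25.5 and 25.8 CPM on low salt, against 29.5, 30.3, 27.3 and 27.9 CPM on high salt. Low-salt replicate 2 was within the high-salt range and the other 3 below it, with a log2 fold change of -0.16 ± 0.08 (adjusted p 0.347).

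Of the FoxO factors, Foxo3 stood at 78.6, 84.4, 76.9 and 91.2 CPM in low-salt kidneys, against 71.8, 79.9, 69.1 and 63.4 CPM in high-salt kidneys. One high-salt library reached into the low-salt range, and the log2 fold change was 0.22 ± 0.08 (adjusted p 0.191). Foxo1 averaged 38.1 ± 2.28 CPM with the low-salt diet and 35.0 ± 2.22 CPM with the high-salt diet (SD, n = 4), with overlapping groups and a log2 fold change of 0.12 ± 0.08 (adjusted p 0.420).

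Pik3r1 was the 1 member of 10 whose kidney groups did not overlap, which 4.83% of all genes showed in that direction. It stood at 119.4, 114, 119.1 and 116 CPM on low salt, against 102, 112, 109 and 111 CPM on high salt, a log2 fold change of 0.11 ± 0.05 (adjusted p 0.290). Irs2 averaged 132 ± 30.5 CPM with the low-salt diet and 115 ± 24.1 CPM with the high-salt diet, and its log2 difference was -0.19 in batch 1 and 0.57 in batch 2. Gabarapl1 averaged 231.7 ± 14.6 CPM in low-salt kidneys and 209 ± 11.4 CPM in high-salt kidneys, a log2 fold change of 0.15 ± 0.06 (adjusted p 0.255). Spop averaged 92.1 ± 3.49 CPM in low-salt kidneys and 85.8 ± 7.85 CPM in high-salt kidneys, a log2 fold change of 0.10 ± 0.07 (adjusted p 0.474). Both overlapped between the diets.

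The muscle ligases Trim63 and Fbxo32 were low in the kidney libraries, though both passed the filter on low counts. Trim63 stood at 3.99, 2.87, 2.91 and 3.01 CPM in low-salt kidneys, against 1.40, 3.36, 2.55 and 2.92 CPM in high-salt kidneys, which are 90 to 131 and 52 to 128 reads per library. The groups overlapped, with a log2 fold change of 0.32 ± 0.28 (adjusted p 0.570). Fbxo32 averaged 5.35 ± 0.751 CPM with the low-salt diet and 5.20 ± 0.784 CPM with the high-salt diet, a log2 fold change of 0.04 ± 0.13 (adjusted p 0.900). Counting error adds to the spread at such levels, and these values do not show that the genes were alike on both diets.

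**Figure D2:**
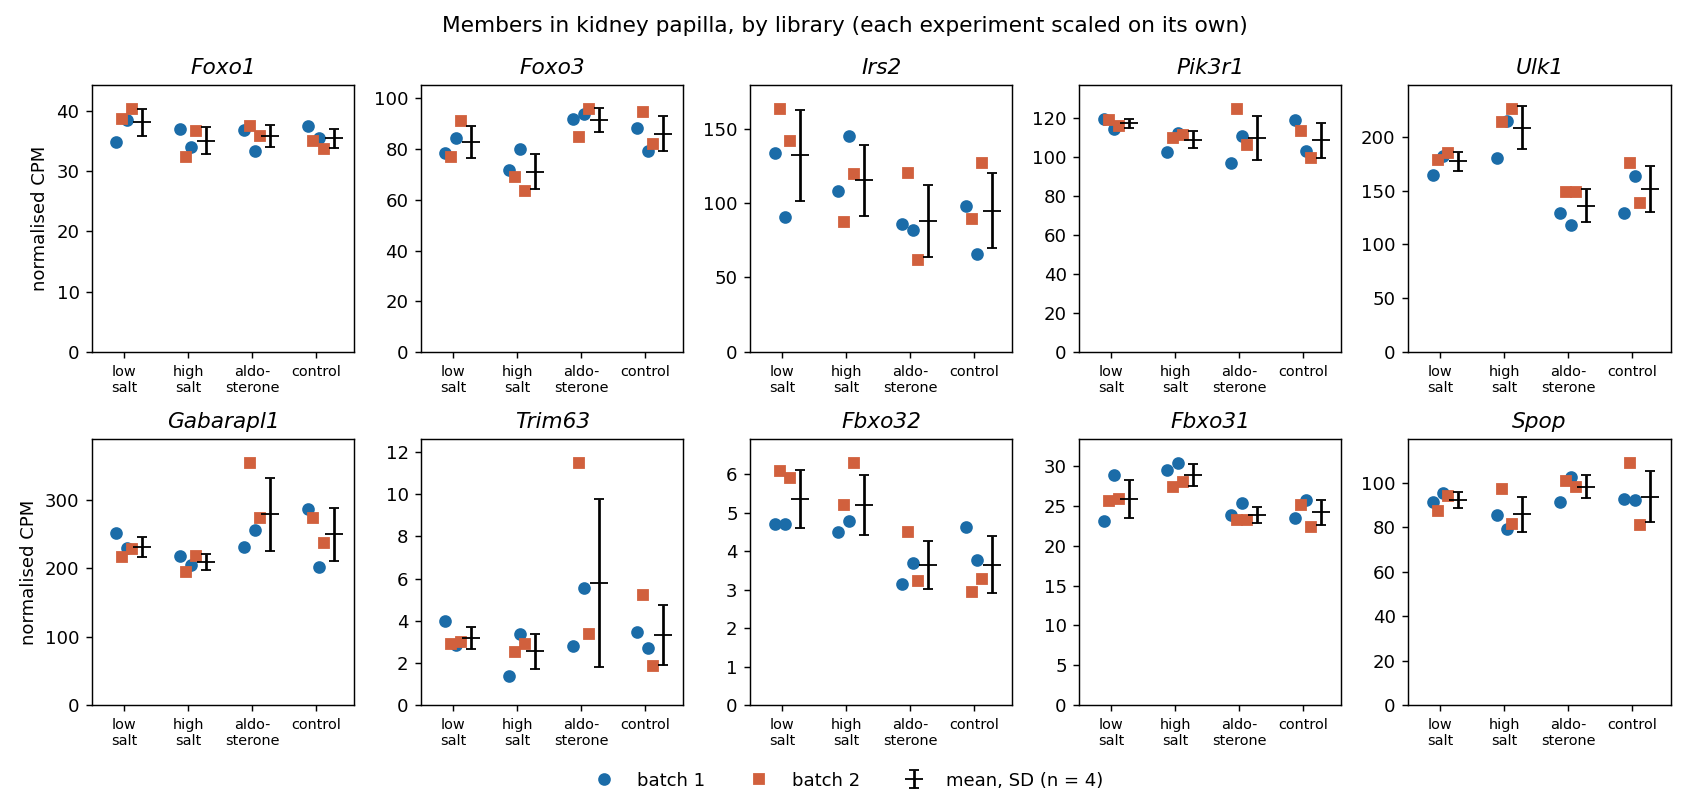
Normalised CPM of the 10 genes in each kidney library (circles batch 1, squares batch 2) in the low-salt experiment and in the aldosterone experiment, with the mean and SD of 4 rats, on linear axes from 0. The groups overlap for every gene except Pik3r1 on low against high salt, Trim63 and Fbxo32 lie under 12 CPM throughout, and each experiment was scaled on its own.

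Aldosterone infusion on the 0.4% Na diet called none of the 10 genes, and 0% of the 17671 genes tested passed in edgeR. Over all genes 1750 had an unadjusted p under 0.05 (9.90%) and DESeq2 called 373 (2.34%). Among the 10 none had an unadjusted p under 0.05 and DESeq2 called none. In a list of 10 such counts lie near those shares, and nothing is read from them. The median log2 fold change of the 10 was 0.02, beside 0.00 over all genes, and no member's groups were apart, as 5.09% of all genes were. Ulk1 stood at 129.6, 118, 148.5 and 148.9 CPM in Aldosterone kidneys, against 129.6, 164, 176 and 138.5 CPM in Control kidneys. Its groups overlapped, with a log2 fold change of -0.16 ± 0.10 (adjusted p 0.655, edgeR).

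Trim63 had the widest spread of the 10 in this experiment. It stood at 2.80, 5.57, 11.5 and 3.36 CPM in Aldosterone kidneys, against 3.46, 2.70, 5.22 and 1.88 CPM in Control kidneys. Aldosterone replicate 3 was the high library, and the log2 fold change of 0.75 ± 0.47 (adjusted p 0.643) was 0.24 without it. The same library was the highest of the Aldosterone group for Gabarapl1, which stood at 231.6, 255, 354 and 274 CPM, against 287, 202, 273 and 237 CPM in Control kidneys. Gabarapl1 overlapped between the groups, at a log2 fold change of 0.15 ± 0.14 (adjusted p 0.761).

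The remaining members were near 0 on the log2 scale with aldosterone. Foxo1 averaged 35.9 ± 1.84 CPM in Aldosterone kidneys and 35.4 ± 1.59 CPM in Control kidneys, and Foxo3 averaged 91.6 ± 4.75 CPM with aldosterone and 86.1 ± 6.86 CPM in Control kidneys (SD, n = 4). Pik3r1 was at 109.6 ± 11.4 CPM with aldosterone and 108.5 ± 9.03 CPM in Control kidneys, and Irs2 at 87.6 ± 24.2 CPM with aldosterone and 94.8 ± 25.3 CPM in Control kidneys. The groups overlapped in each of these genes. Fbxo32 averaged 3.64 ± 0.613 CPM with aldosterone and 3.66 ± 0.731 CPM in Control kidneys, and Fbxo31 averaged 23.9 ± 1.00 CPM with aldosterone and 24.1 ± 1.55 CPM in Control kidneys. Spop averaged 98.2 ± 5.05 CPM with aldosterone and 93.7 ± 11.5 CPM in Control kidneys. Their log2 fold changes lay between -0.10 for Irs2 and 0.09 for Foxo3, and the adjusted p-values between 0.734 and 0.993.

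**Figure D3:**
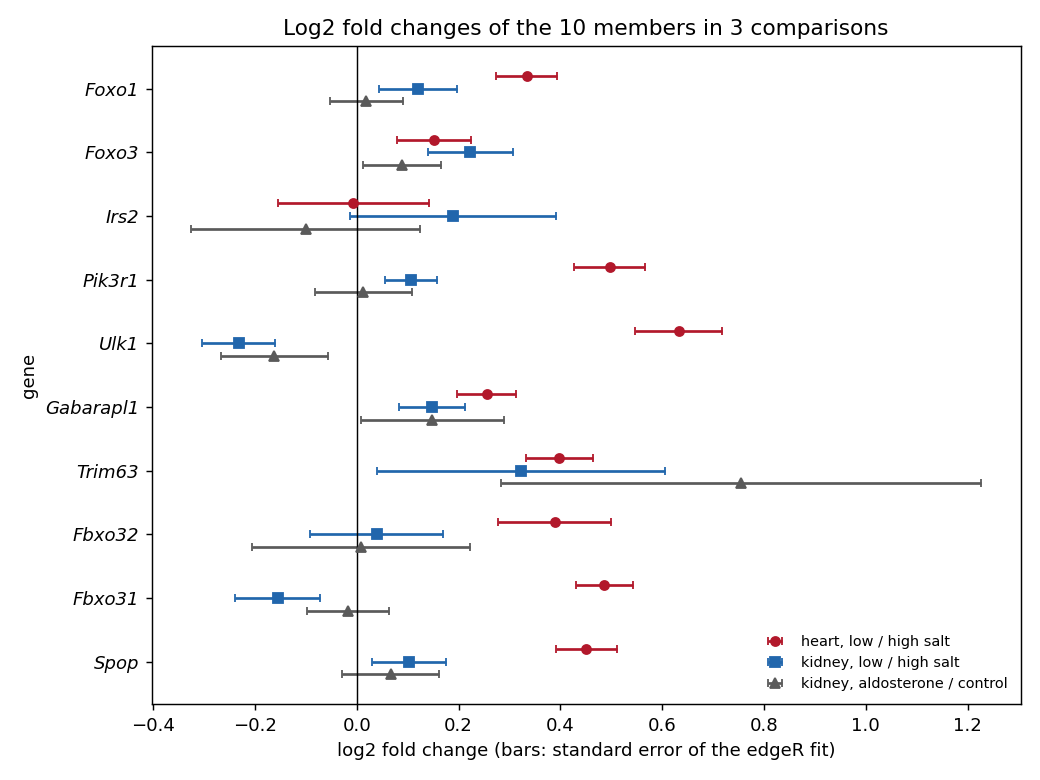
Log2 fold changes of the 10 genes (horizontal axis, with the standard error of the edgeR fit as bars) for low against high salt in heart (circles), low against high salt in kidney (squares) and aldosterone against control in kidney (triangles). Ulk1 lies at 0.63 in heart, -0.23 in low-salt kidney and -0.16 with aldosterone, and Fbxo31 at 0.49, -0.16 and -0.02.

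The low-salt responses of heart and kidney were set against each other in a single model of 16 libraries, in which every batch of either table had its own baseline. The model took all libraries as independent, and the labels do not say whether heart and kidney came from the same rats. Any such pairing is not in its standard errors or p-values. Since the model contains the heart values that led to the list, it too is a description for these genes. Of the 10 genes, edgeR called 2, against 0.83% of the 19408 genes tested, and DESeq2 called 4, against 6.23%. Ulk1 differed by 0.86 ± 0.12 on the log2 scale (heart minus kidney, adjusted p 0.0129, edgeR) and was called in 16 of 16 fits that left out a library. Fbxo31 differed by 0.64 ± 0.10 (adjusted p 0.0172) and was called in 15 of 16, with an adjusted p of 0.0532 without high-salt heart replicate 2, the library with kidney transcripts.

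For Pik3r1 the difference between tissues was 0.38 ± 0.09 (adjusted p 0.0639) and for Spop 0.34 ± 0.09 (adjusted p 0.109), neither past the threshold. Fbxo32 (0.34 ± 0.15), Foxo1 (0.21 ± 0.10), Gabarapl1 (0.10 ± 0.09) and Trim63 (0.07 ± 0.26) were positive, and Foxo3 (-0.08 ± 0.12) and Irs2 (-0.20 ± 0.28) negative, with adjusted p-values of 0.312 to 0.952. In edgeR the heart minus kidney difference was past the threshold for Ulk1 and Fbxo31 and for no other member. Both were higher in mean on low salt in heart and lower in kidney, where neither was called. As the list was chosen by the heart values, this is a description. Without a batch term Fbxo31 did not pass (adjusted p 0.2).

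The low-salt and the aldosterone response of kidney were compared in the same way. None of the 10 genes was called, against 0.0528% of 18938 genes tested, none had an unadjusted p under 0.05 (13.1% of all genes), and DESeq2 called none (3.93%). The differences lay between -0.42 ± 0.59 for Trim63 and 0.31 ± 0.33 for Irs2 on the log2 scale (low salt minus aldosterone). The 2 experiments also differed in their Xist and Y-linked levels, and that difference and the treatments cannot be told apart here.

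Set across tables that were scaled separately, and so without a test, the levels of each gene ordered the tissues differently. Trim63 averaged 152 ± 12.3 CPM in low-salt hearts and 116 ± 14.3 CPM in high-salt hearts, and no kidney group averaged over 5.80 CPM. Fbxo32 followed the same order, at 52.8 ± 9.52 CPM in low-salt hearts, 40.2 ± 5.72 CPM in high-salt hearts and 3.64 to 5.35 CPM in the kidney groups. Fbxo31, Spop and Foxo1 were likewise at their highest group means in low-salt and then high-salt hearts. Irs2, Gabarapl1 and Foxo3 had their lowest means in hearts, at 22.0 ± 9.65, 84.7 ± 7.73 and 52.9 ± 5.30 CPM on low salt and 22.3 ± 9.19, 70.9 ± 5.68 and 47.6 ± 3.17 CPM on high salt. For Ulk1 the order was high-salt kidney (209 ± 19.8 CPM), low-salt kidney (178 ± 8.92 CPM), low-salt heart (156 ± 14.6 CPM), Control kidney (152 ± 21.5 CPM), Aldosterone kidney (136 ± 15.1 CPM) and high-salt heart (101 ± 15.5 CPM). Neighbours in that order had overlapping ranges, except Aldosterone kidney (118 to 149 CPM) and high-salt heart (79.6 to 116 CPM).

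The other genes of the pathway were taken from 9 lists of 131 genes, drawn up with earlier results of these data known. In heart, 0 of the 130 tested were called by edgeR, where 0.0517% of all genes were. An unadjusted p under 0.05 was found for 30 of them (28 higher and 2 lower, against 5.68% and 4.92% of all genes). DESeq2 called 11, all higher, against 2.23% of all genes called and 1.41% called higher. The log2 fold changes of the pathway genes were positive for 98 of 130, against 48.2% of all genes. Their median was 0.08, beside -0.01 over all genes. The median was 0.20 for FoxO target genes outside autophagy (17 of 18 positive), 0.14 for autophagy receptors (8 of 10), 0.10 for lysosome genes (11 of 12) and 0.10 for insulin signalling (12 of 19). It was 0.09 for Atg8 proteins and their conjugation (11 of 14), 0.05 for autophagy initiation (12 of 15), 0.05 for muscle ubiquitin ligases and cullin partners (14 of 18), 0.01 for mTORC1 and AMPK control (8 of 13) and -0.02 for the myostatin and activin axis (5 of 11).

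The gene with the smallest p of each list illustrates these heart values, none past the threshold in edgeR. Fbxo40, a muscle F-box protein that targets the adaptor Irs1, averaged 219 ± 23.0 CPM with the low-salt diet and 159 ± 16.6 CPM with the high-salt diet (log2 0.47 ± 0.07, adjusted p 0.0891). Foxo4, another FoxO factor, averaged 105 ± 13.1 CPM with the low-salt diet and 78.6 ± 3.60 CPM with the high-salt diet (0.41 ± 0.07, adjusted p 0.122). The repressor Bcl6 averaged 17.1 ± 6.26 CPM with the low-salt diet and 9.77 ± 0.0784 CPM with the high-salt diet (0.74 ± 0.18, adjusted p 0.248). In these 3 genes the diets did not overlap. Atg4a, a protease that processes Atg8 proteins, was at 0.36 ± 0.07, the mitophagy receptor Bnip3 at 0.42 ± 0.11, the lysosomal protease Ctsl at 0.23 ± 0.05 and Atg13, a partner of Ulk1, at 0.21 ± 0.06, with adjusted p-values of 0.161 to 0.282. Prkaa1, a catalytic subunit of the energy sensor AMPK, was at -0.16 ± 0.05 (adjusted p 0.356), and Smad4, the shared mediator of activin signals, at -0.11 ± 0.05 (adjusted p 0.488).

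**Figure D4:**
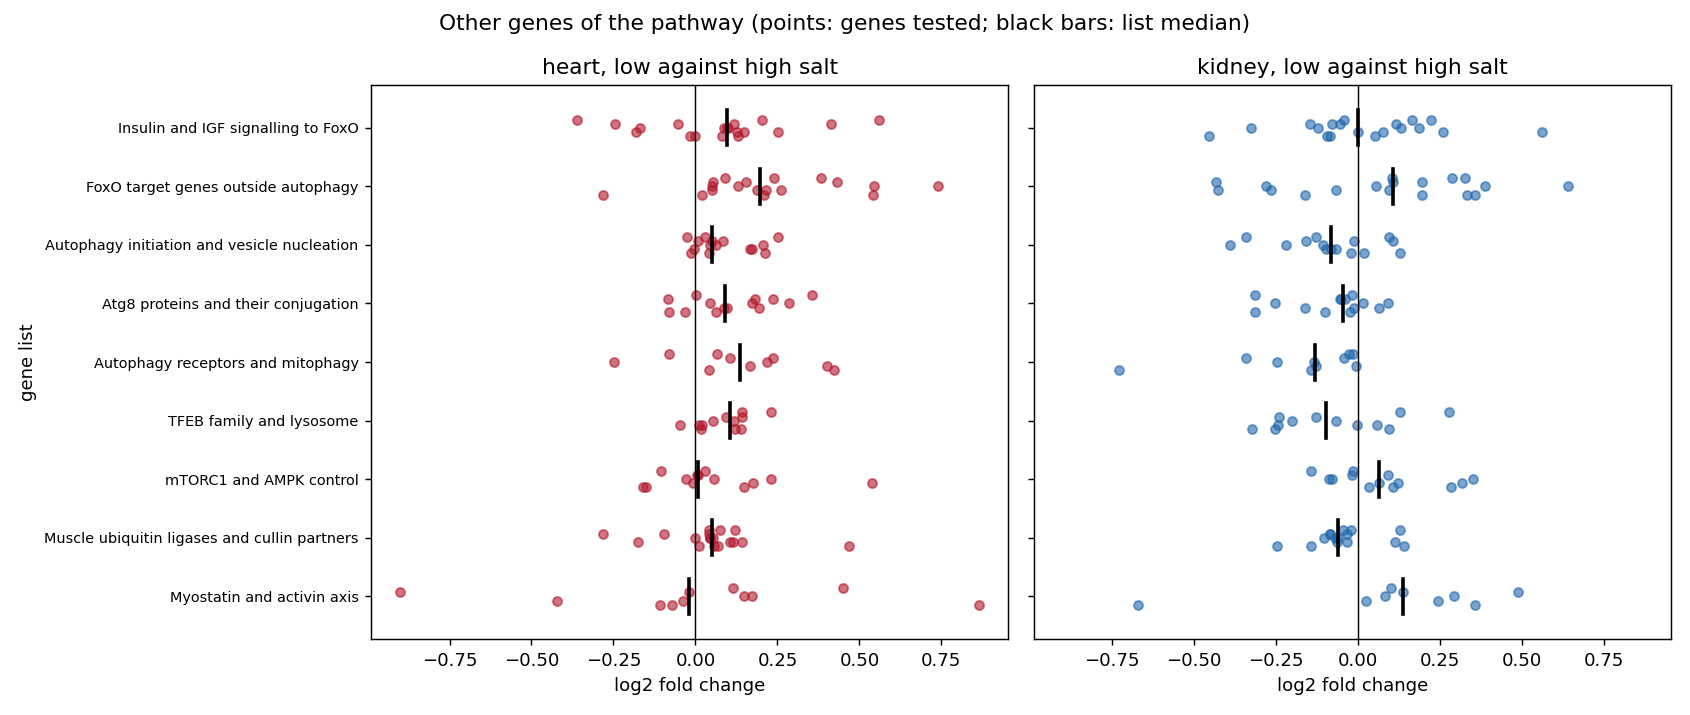
Log2 fold changes of the other pathway genes on low against high salt, by list (rows), in heart on the left and kidney on the right, with black bars at the list medians. The medians run from -0.02 to 0.20 in heart and from -0.13 to 0.14 in kidney, and the 3 lists of autophagy proteins have negative medians in kidney.

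In kidney, 4 of the 125 pathway genes tested were called on low against high salt (against 2.46% of all genes), 2 in each direction, and 35 had an unadjusted p under 0.05, where 19.6% of all genes did. Acvr1b, a type I activin receptor, rose to 105 ± 4.23 CPM on low salt, against 82.0 ± 6.59 CPM on high salt (log2 0.36 ± 0.07, adjusted p 0.0440, edgeR). Gadd45a, a stress gene that FoxO factors are known to activate, rose to 83.8 ± 17.5 CPM on low salt, against 66.3 ± 9.44 CPM on high salt (0.33 ± 0.06, adjusted p 0.0436). Atg2a, which carries lipids to the growing autophagosome, fell to 82.6 ± 12.3 CPM on low salt, against 104 ± 7.42 CPM on high salt (-0.34 ± 0.07, adjusted p 0.0434).

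These 4 calls were near the threshold. None passed with the replicate block or without a batch term, and of the 8 fits that left out a library 1 kept a single call, that of Acvr1b. In lists with no call, the genes with the smallest p of their list included the Atg8 protease Atg4b (-0.32 ± 0.07, adjusted p 0.0504), Bnip3 (-0.73 ± 0.20, adjusted p 0.0930), the mTOR inhibitor Deptor (0.35 ± 0.09, adjusted p 0.0872) and the p53 ligase Mdm2 (-0.25 ± 0.09, adjusted p 0.169). By list, the kidney medians were -0.13 for autophagy receptors (0 of 10 positive), -0.10 for lysosome genes (4 of 12), -0.08 for autophagy initiation (4 of 15), -0.05 for Atg8 proteins (3 of 14) and -0.06 for muscle ligases and cullin partners (3 of 15). They were -0.00 for insulin signalling (9 of 19), 0.06 for mTORC1 and AMPK control (8 of 13), 0.11 for FoxO targets (12 of 18) and 0.14 for the myostatin and activin axis (8 of 9). Of all genes tested in kidney, 49.3% were positive. Beside these values 5 of 5 erythroid markers had positive log2 fold changes (median 1.20, none called), with sums of 2876 to 6413 CPM with the low-salt diet and 1209 to 4700 CPM with the high-salt diet. These kidney sums hold Slc4a1 at 821 to 1650 CPM on low salt and 724 to 1220 CPM on high salt. In heart Slc4a1 was at 19.2 to 121 CPM beside Hbb at 909 to 23600 CPM, so the kidney sums do not measure red cells alone. Intercalated cell markers were positive in 5 of 5 (median 0.38, none called), with sums of 303 to 649.5 CPM in low-salt kidneys and 254 to 330.2 CPM in high-salt kidneys. The summed thick ascending limb markers were 1264 to 2504 CPM with the low-salt diet and 1144 to 2115 CPM with the high-salt diet, and the summed urothelium markers were 62.5 to 150.6 CPM in low-salt kidneys and 50.6 to 364 CPM in high-salt kidneys. Of the endothelium markers 3 of 6 were positive (median -0.02) and 1 was called. The principal cell markers were positive in 3 of 6 (median 0.04), with 1 called. The part of these marker lists in the kidney values was not tested.

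With aldosterone, edgeR called 0 of 126 pathway genes (0% of all genes), 13 had an unadjusted p under 0.05 (9.90% of all genes) and DESeq2 called 1, Pdk4 (2.34% of all genes). Pdk4, a kinase that limits glucose oxidation, averaged 15.5 ± 2.79 CPM in Aldosterone kidneys and 10.3 ± 0.866 CPM in Control kidneys, with no overlap (0.58 ± 0.15, adjusted p 0.268 in edgeR and 0.0337 in DESeq2). Mul1, a mitochondrial ubiquitin ligase, averaged 51.1 ± 3.68 CPM with aldosterone and 42.2 ± 1.03 CPM in Control kidneys, also with no overlap (0.28 ± 0.07, adjusted p 0.268). In other lists the genes with the smallest p included Ctsd (0.50 ± 0.16), Sesn2 (0.33 ± 0.12), Acvr1b (0.19 ± 0.08), Rb1cc1 (-0.15 ± 0.07), Atg5 (-0.15 ± 0.08) and Bnip3l (-0.11 ± 0.06), with adjusted p-values of 0.376 to 0.592. The list medians lay between -0.07 and 0.07. Beside them, the erythroid marker sum was 3373 to 4776 CPM in Aldosterone kidneys and 2025 to 2675 CPM in Control kidneys. Slc4a1 held 999 to 2100 CPM of it with aldosterone and 892 to 1490 CPM in Control kidneys, so it too does not measure red cells alone. Of the fibroblast markers tested, 5 of 5 had positive log2 fold changes (median 0.81, none called). Thick ascending limb markers were positive in 3 of 3 (median 0.69, sums of 1612 to 3359 CPM in Aldosterone kidneys and 678 to 1883 CPM in Control kidneys), macrophage and leukocyte markers in 5 of 5 (median 0.41) and urothelium markers in 4 of 4 (median 0.48). None of these was called, and their part was not tested.

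Between the tissues, 2 of 131 pathway genes had a called difference in their low-salt response, against 0.83% of all genes. DESeq2 called 19 of them, 17 higher and 2 lower, against 6.23% of all genes. Map1lc3a, an Atg8 protein, averaged 602.5 ± 75.4 CPM with the low-salt diet and 492 ± 28.5 CPM with the high-salt diet in heart, and 72.9 ± 2.87 CPM with the low-salt diet and 86.9 ± 5.01 CPM with the high-salt diet in kidney. Its heart minus kidney difference was 0.53 ± 0.11 on the log2 scale (adjusted p 0.0403, edgeR), called in 2 of 16 fits that left out a library. Bnip3 averaged 285 ± 46.9 CPM with the low-salt diet and 211 ± 19.4 CPM with the high-salt diet in heart, and 78.8 ± 8.19 CPM with the low-salt diet and 135 ± 49.7 CPM with the high-salt diet in kidney. The difference was 1.15 ± 0.25 (adjusted p 0.0497), called in 3 of 16.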

How the data were processed

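RNA from 24 rat libraries (6 groups of 4) was sequenced from a stranded mRNA kit, per the labels' protocols. Tools listed in the submitters' processing notes are bcl2fastq 2.19, Trimmomatic, MultiQC and Salmon. Build, annotation and strand setting: not given in the sources used here. In 3 tables the authors deposited unscaled expected counts, which need not be whole. These were rounded here. For Foxo1, Pik3r1, Ulk1, Fbxo31 and Spop 0 of 24 libraries held a whole count (within 5e-04), so their reads are partly shared with other transcripts by estimation, and a read from an overlapping antisense gene may not be told apart.

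Each table was fitted alone in edgeR 4.0.16 (R 4.3.3): filterByExpr with a minimum count of 10, TMM scaling, quasi-likelihood F test with batch as a term, Benjamini-Hochberg over all genes, threshold 0.05. Interactions used 16 libraries, taken as independent. The members and lists were chosen with earlier results of these data known. Named genes are the 10 members, up to 3 called genes per pathway list or otherwise the 1 with the smallest p, the 3 genes most like Foxo1, Trim63 and Fbxo32, and each member's nearest member. Of the 131 pathway genes, Sgk2 failed the filter in heart, and 2 that the rule names are counted but not reported here by name. Promoter windows and gene names came from RefSeq tables of GRCr8, which held all 36856 symbols.

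Replicates are separate rats per the labels, and no pair of libraries agreed within sampling noise (chi-square per gene of 20.5 to 105 over 36 pairs). Same-numbered heart libraries deviated together (correlations of 0.161 to 0.231), and numbers also share the labelled batch. Replicates 2, 3 and 4 correlated better with another number of their own batch (0.219, 0.286 and 0.195). These values do not show pairing by number in heart, and the replicate block was run only as an alternative to batch. In both kidney tables the correlations ran from -0.045 to 0.38 and do not pair. The fits were tested on simulated data. Alternatives were DESeq2 1.42.0, other scalings and filters, no batch term, the replicate block, single batches and each library left out.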

Additional observations from a re-analysis of the deposited data

Results flagged for a closer look

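Differences between the tissues in their low-salt response, each past the adjusted threshold in edgeR, were found for Ulk1 (0.86 on the log2 scale, heart minus kidney), Fbxo31 (0.64), Map1lc3a (0.53) and Bnip3 (1.15). Over all genes 0.83% passed. The members and lists were chosen with earlier results of these data known, so these differences are a description. The fit took heart and kidney libraries as independent, and the labels do not say whether they came from the same rats. Without a batch term Fbxo31 did not pass (adjusted p 0.2, edgeR). Of 16 fits that left out a library, Map1lc3a was called in 2 and Bnip3 in 3.

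Single libraries stood far from the other 3 of their group in 8 of 114 groups of 4 checked, and chance gives about 1 in 20. The values of 7 of these are given here. In heart, Fbxo32 was at 67.0 CPM in low-salt replicate 3, against 46.9 to 50.02 CPM in the others, and the lysosomal protease gene Ctsl at 267 CPM in low-salt replicate 2, against 245 to 247 CPM. Foxo1 was at 42.6 CPM in high-salt replicate 4, against 46.1 to 46.3 CPM, and Atg13 at 57.6 CPM in high-salt replicate 2, against 49.8 to 50.5 CPM. In kidney, Trim63 was at 3.99 CPM in low-salt replicate 1, against 2.87 to 3.01 CPM. High-salt replicate 1 held Deptor at 77.9 CPM, against 96.4 to 97.9 CPM. Mul1 was at 43.7 CPM in Control replicate 2, against 41.5 to 41.8 CPM.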

How the results depend on the processing

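In heart the number of members called, 1 in edgeR, was 7 with DESeq2 (2.23% of all genes), 5 with no filter on low counts, 0 without a batch term, 0 with the replicate block and 0 in each of the 8 fits that left out a library. The 7 were all but Foxo3, Irs2 and Fbxo32. The share of all genes called with no filter is not given here, so nothing is read from the counts under that setting. For the pathway genes in heart, 0 in edgeR, the count was 11 with DESeq2 (2.23% of all genes) and 2 with no filter. In kidney on low salt, 4 in edgeR, it was 17 with DESeq2 (10.6% of all genes), 1 with no filter, 0 without a batch term, 0 with the replicate block and 0 to 1 with a library left out. With aldosterone, 0 in edgeR, it was 1 with DESeq2. The heart minus kidney difference, called for 2 members, was called for 4 with DESeq2 (Pik3r1 and Spop added), 1 without a batch term (Fbxo31 was lost, adjusted p 0.2) and 1 to 2 with a library left out. Members called in both kidney comparisons and in low salt minus aldosterone were 0 under every alternative run. In none of the 3 tables did every library correlate best with its own number: in heart, replicates 2, 3 and 4 correlated best with numbers 1, 4 and 3.

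These log2 values changed sign with a library left out. In heart Irs2 ran from -0.14 to 0.12, and in low-salt kidney Fbxo32 from -0.0177 to 0.0913. With aldosterone Foxo1 ran from -0.0085 to 0.0626, Irs2 from -0.28 to 0.0886, Pik3r1 from -0.0529 to 0.0774, Fbxo32 from -0.15 to 0.13, Fbxo31 from -0.0481 to 0.0207 and Spop from -0.0135 to 0.16. Fbxo32 there was -3e-04 with DESeq2 size factors and -0.0041 without a batch term. For heart minus kidney Trim63 ran from -0.15 to 0.32. For low salt minus aldosterone Ulk1 ran from -0.14 to 0.023, Gabarapl1 from -0.12 to 0.12, Trim63 from -0.66 to 0.0987, Fbxo32 from -0.069 to 0.21 and Spop from -0.0309 to 0.13. The cause was not tested.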
